A study of Mus musculus with 6 samples.

Results

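The sarcomeric actins and myosin light chains are 8 named genes, taken from the gene rows by symbol: the actins Acta1 and Actc1, and the light chains Myl1, Myl2, Myl3, Myl4, Mylpf and Myl6b. All 8 were found among the 55291 gene rows of the deposited table. They were measured by RNA sequencing of whole dorsal skin taken from mice at day 40 of age. The 3 wild-type (WT) libraries came from C57BL/6 mice. The 3 Tsk libraries came from mice of the strain B6.Cg-Fbn1Tsk/J, whose genotype the labels write as Fbn1+/-. The strain name refers to Tsk (tight skin), an allele of the fibrillin-1 gene Fbn1. The libraries were made from total RNA after removal of ribosomal RNA, with a strand-marking protocol. The labels do not say whether each library is a separate mouse, so the p-values below measure the spread between these libraries, which may be technical in part.

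A sarcomere is the contractile unit of striated muscle, in which myosin thick filaments pull on actin thin filaments. Each myosin head carries 1 essential and 1 regulatory light chain, and vertebrates keep separate light chain and actin genes for fast fibres, slow fibres, heart and the developing embryo. Mouse dorsal skin includes a sheet of striated muscle, the panniculus carnosus, so a piece of whole skin holds sarcomeric RNA beside that of epidermis, fibroblasts, fat and vessels. Such a tissue sample cannot tell fewer muscle cells from less of an RNA per cell.

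Transcription of several sarcomeric genes is known to depend on serum response factor, which binds the CArG box, and on myogenic factors, which bind the E-box. The 150 bases before the RefSeq gene start are shown for 4 of the members because they hold these motifs and belong to the adult (Acta1, Mylpf), embryonic (Actc1) and slow (Myl3) sets described below. The sequences are from the RefSeq promoter table of build GRCm38.p6, read 5′ to 3′ along the gene's strand, and capitals mark the motif. The windows are chr8:123894776-123894925 on the minus strand for Acta1, chr2:114052876-114053025 on the minus strand for Actc1, chr9:110763528-110763677 on the plus strand for Myl3 and chr7:127211458-127211607 on the plus strand for Mylpf.
Acta1: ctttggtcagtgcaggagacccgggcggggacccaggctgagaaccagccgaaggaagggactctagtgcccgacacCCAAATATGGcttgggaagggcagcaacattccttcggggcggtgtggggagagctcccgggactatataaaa
Actc1: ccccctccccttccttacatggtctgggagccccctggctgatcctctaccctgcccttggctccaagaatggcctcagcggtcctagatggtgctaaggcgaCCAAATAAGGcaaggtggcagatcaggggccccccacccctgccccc
Myl3: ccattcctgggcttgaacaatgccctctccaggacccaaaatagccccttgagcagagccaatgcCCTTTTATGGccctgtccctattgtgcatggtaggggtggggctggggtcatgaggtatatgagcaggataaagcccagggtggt
Mylpf: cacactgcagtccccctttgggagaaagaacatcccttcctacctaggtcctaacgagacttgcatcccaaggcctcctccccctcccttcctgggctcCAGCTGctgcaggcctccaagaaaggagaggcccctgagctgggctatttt
The marked motif of the first 3 is a CArG box, and that of Mylpf is an E-box, CANNTG. The first base of the CArG box lies 73 bases before the start in Acta1, 47 in Actc1 and 85 in Myl3, and the E-box of Mylpf begins 51 bases before it. Searched on both strands, the CArG box occurred in 301 of 32843 promoter windows of this length, which is 0.916%. The E-box occurred in 47.7% of them. Of the members not shown, Myl2 (at each listed start) and Myl6b held an E-box and no CArG box. Myl1 and Myl4, the latter an embryonic member, held neither motif in this window. The RefSeq starts differ in part from the ends of the deposited gene spans. The Myl2 windows, chr5:122092574-122092723 and chr5:122093039-122093188, lie before its deposited span, which begins at 122100951. Of the windows shown, those of Actc1, Myl3 and Mylpf lie inside the deposited spans. A match is a description of these letters only.

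The pair of actins share most of their coding sequence, so the reads of one could in principle be counted for the other. The first 60 coding bases are shown, from the GENCODE M21 transcripts, with the 9 positions that differ in capitals.
Acta1: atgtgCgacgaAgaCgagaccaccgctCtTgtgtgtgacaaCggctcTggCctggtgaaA
Actc1: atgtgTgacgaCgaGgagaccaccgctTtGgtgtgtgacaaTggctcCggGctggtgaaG
Over the whole coding sequence, 976 of 1131 bases were identical (86.3%), and the longest shared run was 29 bases. No stretch of 50 coding bases was common to both. The next closest pairs were Myl6b with the non-muscle light chain Myl6, at 78.1% with a longest shared run of 46 bases, and Myl3 with Myl4, at 77.0% with a run of 29 bases. How the authors' counting treated reads that fit more than 1 gene is not stated in the sources used here.

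The deposited gene-level counts summed to between 17561271 and 19219622 per library, and 34.8% to 37.3% of the gene values in a library were not whole numbers. As a check of the labels, Fbn1 held 4684, 5420 and 4765 counts in WT replicates 1, 2 and 3, and 27971, 43910 and 37855 in Tsk replicates 4, 5 and 6 (log2 fold change 2.54 ± 0.24, edgeR adjusted p = 0.00402). The counts separate the groups, but they are higher in Tsk and so go against a reading of the label Fbn1+/- as loss of 1 copy. Of 19971 genes tested with edgeR's quasi-likelihood test, 683 (3.42%) had an adjusted p under 0.05, 544 of them (2.72%) higher in Tsk and 139 (0.696%) lower. The adjustment is that of Benjamini and Hochberg over all genes tested. Muscle RNA differed in amount within the WT group: 26 adult skeletal muscle genes that include no member took 17.1% of the counts in WT replicate 1, 25.0% in replicate 2 and 23.6% in replicate 3, and 17.0%, 15.9% and 14.7% in Tsk replicates 4, 5 and 6. WT replicate 1 therefore lay beside the Tsk libraries in muscle content. Ribosomal and mitochondrial-like gene rows took 8.74% to 11.2% of the counts in WT and 5.72% to 7.52% in Tsk, without overlap. With these rows left out, 683 genes and 2 members were called.

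All 8 members passed the filter on low counts. Actc1 and Myl4 fell in Tsk by edgeR, and no member rose. These are 2 of 8, beside 0.696% of all genes tested that were lower and 2.72% that were higher. At an unadjusted p under 0.05, 4 members were lower and 0 higher (20.1% of all genes in either direction), and DESeq2 called 4 lower and 0 higher, where it called 1.85% of its 21978 tested genes lower and 5.13% higher. The members' median log2 fold change was -0.79, against -0.03 over all genes tested. Values per library are CPM, the count relative to the library total after scaling by the trimmed mean of M-values (TMM), and are given for WT replicates 1, 2 and 3 and then Tsk replicates 4, 5 and 6.

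Levels of different genes are compared here as CPM per kilobase of exon. In WT the order was Acta1 at 12463 ± 3690 (SD, n = 3), Mylpf at 4066 ± 1391, Myl1 at 3131 ± 1004, Actc1 at 146 ± 36.1, Myl2 at 22.6 ± 38.7, Myl3 at 15.6 ± 26.8, Myl6b at 12.8 ± 8.84 and Myl4 at 10.6 ± 4.10. The means of Mylpf and Myl1 differed by less than their spread between libraries, as did those of the last 4 among themselves. Within each WT library, Mylpf was above Myl1. In Tsk the order was Acta1 at 7894 ± 654, Mylpf at 2090 ± 102, Myl1 at 1657 ± 110, Myl2 at 59.6 ± 59.0, Actc1 at 42.8 ± 20.2, Myl3 at 35.2 ± 33.8, Myl6b at 15.9 ± 9.55 and Myl4 at 1.70 ± 0.350. The libraries of Myl2, Actc1, Myl3 and Myl6b overlapped there, whereas those of Mylpf and Myl1 did not, and Myl4 lay below every other member. The 3 most abundant in both groups were the adult skeletal actin and the light chains of fast fibres.

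**Figure D1:**
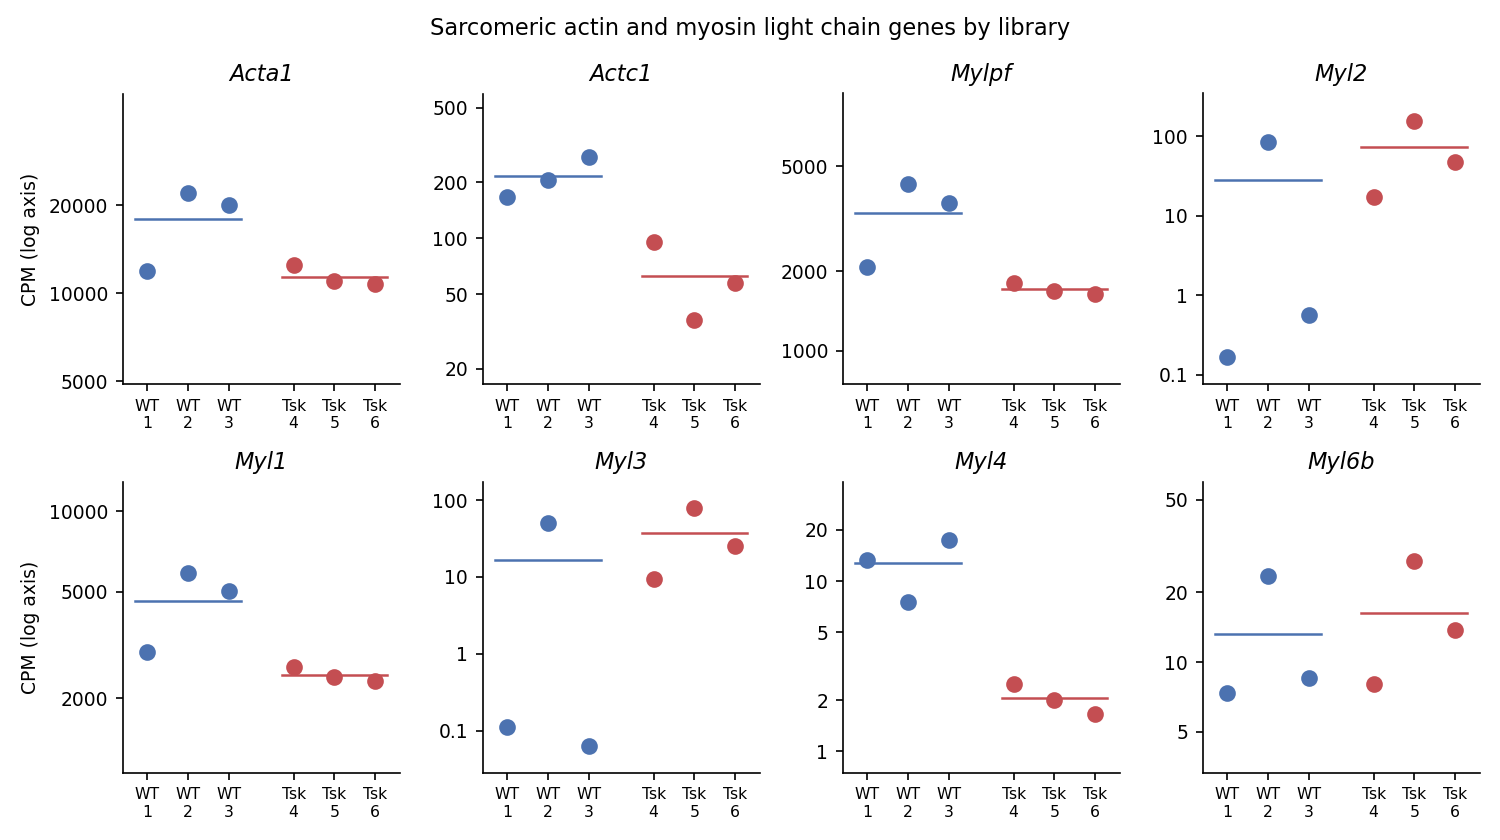
CPM of each member (vertical axis, log scale, a different range in each panel) in the 3 WT libraries (blue) and the 3 Tsk libraries (red), with a line at each group's mean. All Tsk points lie below all WT points for Actc1, Mylpf, Myl1 and Myl4, as for 10.6% of all genes tested. Myl2 and Myl3 are near 0 in WT replicates 1 and 3 alone.

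Acta1 encodes skeletal muscle alpha-actin, the thin filament actin of adult skeletal fibres. The gene spans chromosome 8 from 123891769 to 123894752 on the minus strand (mm10, as deposited). Its level was 11954, 21985 and 20125 CPM in WT and 12497, 10998 and 10747 CPM in Tsk. WT replicates 2 and 3 were high, while WT replicate 1 lay within the Tsk range. The means were 18021 ± 5336 and 11414 ± 946 CPM (SD, n = 3), and the log2 fold change of -0.66 ± 0.34 (SE) gave an edgeR adjusted p of 0.318. It passed the test under no alternative, and its log2 fold change ran from -0.86 to -0.33.

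Actc1 encodes cardiac alpha-actin, which is also the main sarcomeric actin of embryonic skeletal muscle and is low in the adult. It spans chromosome 2 from 114047282 to 114053549 on the minus strand. It measured 166.0, 206.5 and 271.3 CPM in WT and 95.1, 36.3 and 57.8 CPM in Tsk. Every Tsk library lay below every WT library, which held for 10.6% of all genes tested. The mean fell 3.40-fold, from 215 ± 53.1 to 63.1 ± 29.7 CPM (log2 fold change -1.77 ± 0.34, edgeR adjusted p = 0.0323). The call is narrow: without WT replicates 1, 2 or 3 or Tsk replicate 6 the edgeR adjusted p was 0.0566, 0.0853, 0.125 and 0.0945, and with no filter on low counts it was 0.0869.

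Mylpf is the regulatory light chain of fast fibres, on chromosome 7 from 127208890 to 127214299, plus strand. Its level was 2073, 4294 and 3623 CPM in WT and 1805, 1685 and 1645 CPM in Tsk. Myl1 gives the essential light chains of the same fibres, on chromosome 1 from 66924295 to 66945405, minus strand, and measured 2980, 5860 and 5015 CPM in WT and 2625, 2396 and 2311 CPM in Tsk. In both genes WT replicates 2 and 3 were high, and WT replicate 1 was only a little above the Tsk libraries. The groups did not overlap, with Tsk lower, as for 10.6% of all genes tested.

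Neither fast light chain passed the test. The means were 3330 ± 1139 and 1712 ± 83.5 CPM for Mylpf and 4618 ± 1480 and 2444 ± 162 CPM for Myl1. The log2 fold change of Mylpf was -0.96 ± 0.30 with an edgeR adjusted p of 0.122, and that of Myl1 was -0.92 ± 0.30 with an edgeR adjusted p of 0.136. DESeq2 called both lower, with adjusted p of 0.00424 for Mylpf and 0.00476 for Myl1. Without WT replicate 1, edgeR called both too, with log2 fold changes of -1.18 for Mylpf and -1.13 for Myl1. With no filter on low counts edgeR called Mylpf (adjusted p = 0.0464) and not Actc1, so the 2 members called there were Myl4 and Mylpf. The pair kept a fixed proportion, with 1.36 to 1.45 Myl1 counts per Mylpf count in the 6 libraries. Acta1 did not keep it with Mylpf: the libraries held 5.77, 5.12 and 5.56 Acta1 counts per Mylpf count in WT and 6.92, 6.53 and 6.53 in Tsk, so each Tsk library was above each WT library.

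Myl4 is the essential light chain of embryonic skeletal muscle and of the atrium. It spans chromosome 11 from 104550663 to 104595754 on the plus strand. It measured 13.3, 7.57 and 17.4 CPM in WT and 2.48, 2.01 and 1.64 CPM in Tsk, from 117 to 280 counts per WT library and 35 to 48 per Tsk library. All Tsk libraries lay below all WT libraries, as for 10.6% of all genes tested. The mean fell 6.24-fold, from 12.8 ± 4.92 to 2.05 ± 0.421 CPM (log2 fold change -2.64 ± 0.32, edgeR adjusted p = 0.00792). It passed the test with each library left out in turn, at log2 fold changes of -2.90 to -2.35. Of the WT libraries, replicate 1 had little muscle RNA and was the second highest in Myl4, and replicate 2 had the most muscle RNA and the least Myl4.

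**Figure D2:**
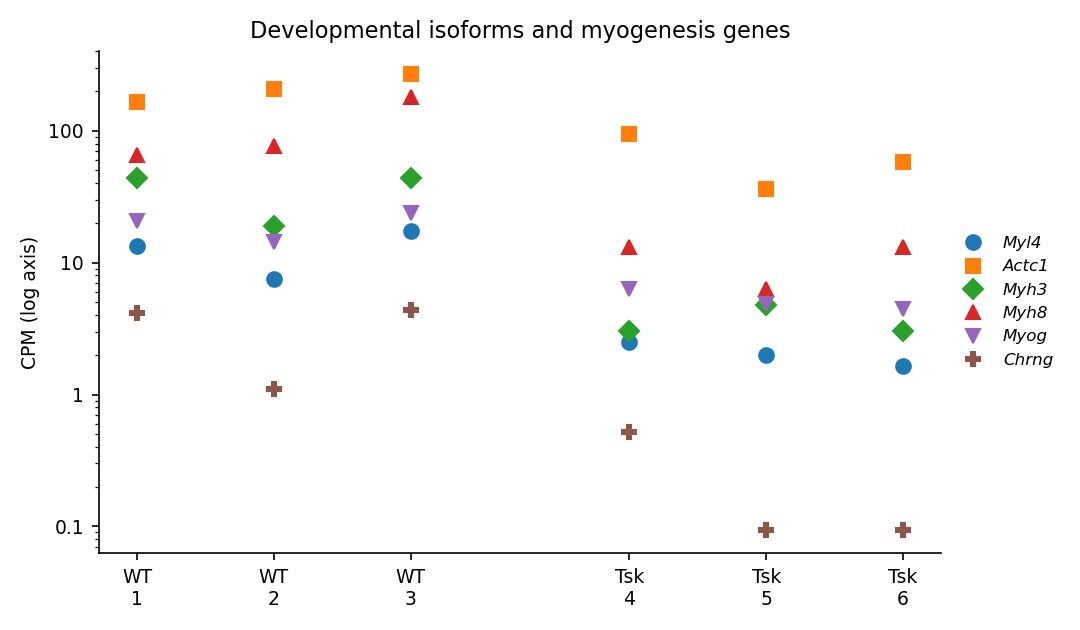
CPM (log axis) of Actc1 and Myl4 beside the developmental muscle genes Myh3, Myh8, Myog and Chrng in the 3 WT and 3 Tsk libraries. All 6 genes are lower in every Tsk library than in any WT library, as were 10.6% of all genes tested. Myh3, Myh8, Myog and Chrng are among the myogenesis list genes that fell. Pax3, Pax7, Myf5 and Ncam1 of that list, not shown, overlapped between the groups.

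Other genes of forming or regenerating muscle were lower in Tsk as well. Of 15 tested genes on a list of myogenesis and regeneration, 8 fell and 0 rose, against 0.696% and 2.72% of all genes tested, and the list's median log2 fold change was -0.97. The embryonic myosin heavy chain Myh3 measured 44.0, 19.1 and 44.0 CPM in WT and 3.05, 4.76 and 3.01 CPM in Tsk (log2 fold change -3.30 ± 0.36, edgeR adjusted p = 0.00631). The perinatal heavy chain Myh8 measured 65.7, 76.6 and 180 CPM in WT and 13.1, 6.35 and 13.1 CPM in Tsk (-3.31 ± 0.45, edgeR adjusted p = 0.0133). Neither overlapped between the groups, with Tsk lower, as for 10.6% of all genes tested. Both log2 fold changes were larger in size than those of Actc1 and Myl4, a difference that was not tested.

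Myog, the myogenic regulator of differentiation, measured 20.7, 14.3 and 23.7 CPM in WT and 6.26, 4.85 and 4.42 CPM in Tsk (log2 fold change -1.92 ± 0.22, edgeR adjusted p = 0.00748). Chrng, the acetylcholine receptor subunit of immature muscle, held 75, 17 and 70 counts in WT and 10, 2 and 2 in Tsk (edgeR adjusted p = 0.0302). The remaining 4 that fell were Ankrd1, a stress-responsive ankyrin repeat protein, at a log2 fold change of -3.96 ± 0.51, Mymk, which drives myoblast fusion, at -1.91 ± 0.39, the cadherin Cdh15 at -1.10 ± 0.18 and the muscle regulator Myf6 at -0.97 ± 0.18. The most abundant on the list did not pass: Des, the muscle intermediate filament protein, was at -0.86 ± 0.23 (edgeR adjusted p = 0.0851) and the growth factor Igf2 at -0.55 ± 0.19 (edgeR adjusted p = 0.147). Pax3, Pax7, Myf5 and Ncam1 of the same list overlapped between the groups, and Pax3 was at 0.52 ± 0.29 (edgeR adjusted p = 0.366). The count of 8 genes that fell was 4 without WT replicate 3, 4 without Tsk replicate 5 and 5 without Tsk replicate 6.

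Myl2 and Myl3 are the regulatory and essential light chains shared by slow fibres and the ventricle. They are carried on chromosome 5 from 122100951 to 122113473 and chromosome 9 from 110741861 to 110769799, both on the plus strand. Myl2 measured 0.167, 83.6 and 0.558 CPM in WT and 17.3, 156.9 and 47.9 CPM in Tsk. Myl3 measured 0.111, 49.6 and 0.0620 CPM in WT and 9.26, 78.2 and 25.3 CPM in Tsk. WT replicates 1 and 3 held almost none, with 3 and 9 counts of Myl2 and 2 and 1 counts of Myl3. WT replicate 2 and all 3 Tsk libraries held from 335 to 3362 counts of Myl2 and from 179 to 1675 of Myl3.

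Because WT replicate 2 lay inside the Tsk range, the groups overlapped and neither gene passed the test. The means were 28.1 ± 48.1 and 74.0 ± 73.4 CPM for Myl2 and 16.6 ± 28.6 and 37.6 ± 36.1 CPM for Myl3. The log2 fold change was 1.40 ± 1.87 for Myl2 (edgeR adjusted p = 0.740) and 1.19 ± 1.82 for Myl3 (edgeR adjusted p = 0.776). The size of the difference rests on single libraries: without Tsk replicate 5 it was 0.22 for Myl2 and 0.07 for Myl3, and without WT replicate 2 it was 7.69 and 8.64, set against the 1 to 9 counts of the other WT libraries. With limma-voom it was 4.71 and 5.07, and none of these passed. The 4 libraries with these transcripts held them in a like proportion: 1.69 counts of Myl2 per count of Myl3 in WT replicate 2, and 1.87, 2.01 and 1.89 in Tsk replicates 4, 5 and 6.

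Several other slow-fibre genes were high in the same libraries. Myh7, the slow myosin heavy chain, measured 2.28, 657 and 2.36 CPM in WT and 127, 879 and 416 CPM in Tsk. Slow troponin C, Tnnc1, measured 4.28, 71.3 and 4.22 CPM in WT and 14.1, 103 and 41.6 CPM in Tsk. Atp2a2, the calcium pump of slow fibres and other cells, measured 119, 341 and 140 CPM in WT and 196, 610 and 299 CPM in Tsk. WT replicate 2 was high in all 3, as in Myl2 and Myl3. Not all of the list followed: Casq2, a calcium-binding protein of the sarcoplasmic reticulum, was at 26.4 CPM in WT replicate 3 and at 18.9 and 17.3 CPM in Tsk replicates 4 and 6. Tnni1, slow troponin I, kept the order of libraries only narrowly, at 6.70 CPM in WT replicate 3 and 6.93 CPM in Tsk replicate 4. Myh7b had a log2 fold change of -0.44. Of the 9 slow-fibre genes listed, 0 passed the edgeR test, 0 had an unadjusted p under 0.05 and 0 were called by DESeq2. Their median log2 fold change was 0.75.

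**Figure D3:**
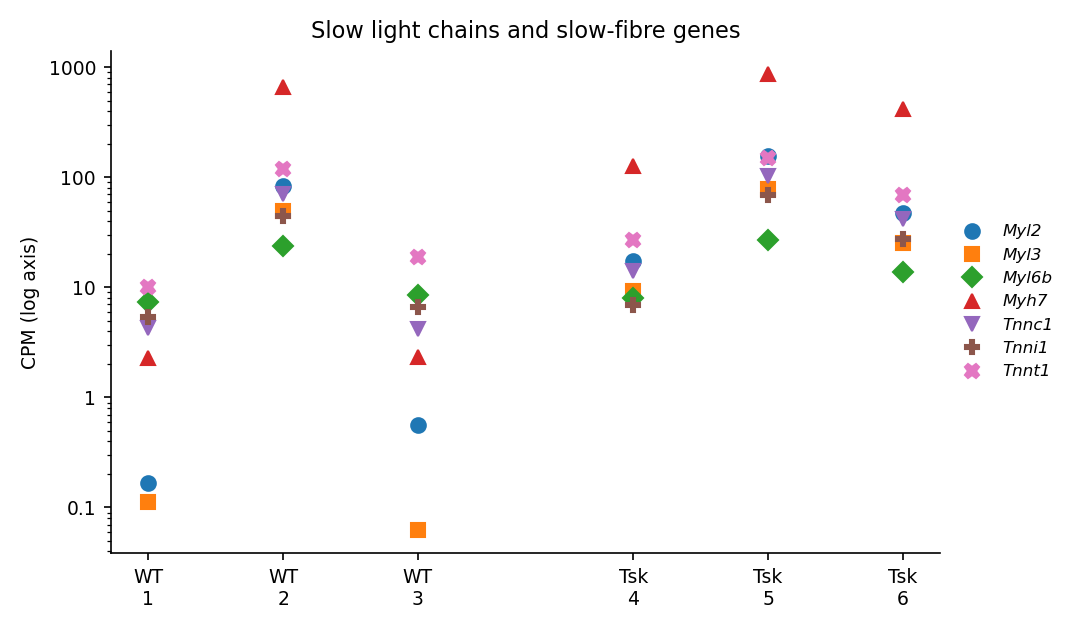
CPM (log axis) of Myl2, Myl3 and Myl6b beside the slow-fibre genes Myh7, Tnnc1, Tnni1 and Tnnt1 in the 3 WT and 3 Tsk libraries. WT replicates 1 and 3 are the lowest 2 libraries for every gene shown except Myl6b, and WT replicate 2 lies among the Tsk libraries.

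Both genes are also heart genes. The 10 heart-list genes differed in level in this tissue, and Hcn4, Sln and Ryr2 reached the highest counts. Nppa, Myl7 and Nkx2-5 had 0 counts in each of the 6 libraries, which allows up to 3 counts per library, or 0.140 to 0.194 CPM, for counting error only. Nppb held 0 to 3 counts, Mybpc3 0 to 5, Myh6 3 to 39 and Tnni3 8 to 33. Hcn4 held 28 to 301 counts, Sln 27 to 161 and Ryr2 40 to 145. Of the 5 heart-list genes that could be tested, 0 passed the edgeR test, 3 had an unadjusted p under 0.05 and DESeq2 called 1, and the list's summed level was 11.1 to 15.7 CPM in WT and 12.8 to 26.9 CPM in Tsk. The most abundant of the list, Hcn4 and Sln, had log2 fold changes of 1.91 ± 0.50 (edgeR adjusted p = 0.0814) and -1.15 ± 0.44 (edgeR adjusted p = 0.192).

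Myl6b encodes an essential light chain of slow skeletal muscle that is also made outside muscle. It lies on chromosome 10 from 128494157 to 128498686, minus strand. It measured 7.33, 23.6 and 8.56 CPM in WT and 8.07, 27.2 and 13.8 CPM in Tsk, highest in Tsk replicate 5 and WT replicate 2, with the groups overlapping. The means were 13.2 ± 9.06 and 16.3 ± 9.79 CPM, and the log2 fold change was 0.32 ± 0.55 (edgeR adjusted p = 0.801). It became -0.26 without Tsk replicate 5.

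Since the libraries differ in their share of muscle RNA, the fit was repeated with each library scaled by the median ratio over the 26 adult muscle genes. On this scale the median of all genes tested moved to a log2 fold change of 0.65, and 15.4% of genes passed, 15.2% higher and 0.155% lower. Values on this scale say how a gene stood relative to adult muscle RNA. Actc1 and Myl4 again fell, and Myl6b rose. The members' median was -0.01.

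Scaled in this way, Acta1 held 254085, 240869 and 255414 counts in WT and 262204, 258590 and 290302 in Tsk, every Tsk library slightly above every WT library, as for 38.5% of genes. Mylpf held 44053, 47046 and 45976 in WT and 37877, 39610 and 44430 in Tsk, with an overlap between WT replicate 1 and Tsk replicate 6. Myl1 held 63334, 64198 and 63649 in WT and 55071, 56339 and 62425 in Tsk, every Tsk library below every WT library, as for 0.366% of genes. The higher level of WT replicates 2 and 3 seen on the CPM scale was small or gone in all 3 genes. The edgeR log2 fold changes were 0.11 ± 0.29 for Acta1 (adjusted p = 0.745), -0.17 ± 0.29 for Mylpf (adjusted p = 0.623) and -0.14 ± 0.29 for Myl1 (adjusted p = 0.689). None of these passed the test.

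Actc1 on the same scale held 3529, 2263 and 3444 counts in WT and 1994, 854 and 1562 in Tsk, and Myl4 held 283, 82.9 and 220 in WT and 52.1, 47.2 and 44.4 in Tsk. Neither overlapped between groups, with Tsk lower, as for 0.366% of genes on this scale. The log2 fold change was -1.07 ± 0.32 for Actc1 (edgeR adjusted p = 0.00970) and -2.02 ± 0.45 for Myl4 (edgeR adjusted p = 0.000250). Myl4 passed with each library left out, whereas Actc1 passed in 2 of 6 such fits. Myl6b held 156, 259 and 109 counts in WT and 169, 639 and 373 in Tsk, which overlap, at 1.17 ± 0.38 (edgeR adjusted p = 0.0210), a call kept in 2 of 6 fits. That rise is in a direction shared by 15.2% of all genes on this scale. Myl2 and Myl3 remained uncalled at 2.52 ± 2.33 and 2.30 ± 2.33, and both were called without WT replicate 2, at 8.29 and 9.17, values that rest on the 1 to 9 counts of WT replicates 1 and 3. Without Tsk replicate 5 they were 1.39 and 1.23 and not called.

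**Figure D4:**
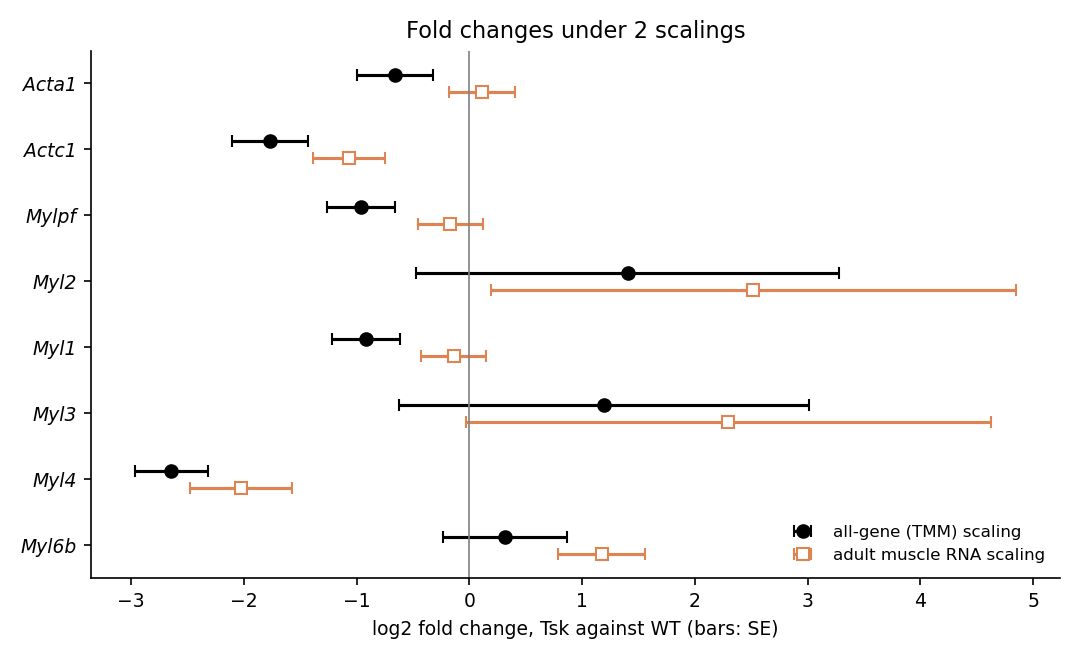
Log2 fold change of Tsk against WT with its standard error for each member, scaled by all genes (TMM) and by 26 adult muscle genes. Actc1 and Myl4 are below 0 on both scales, Acta1, Myl1 and Mylpf move close to 0 on the muscle scale, and Myl2 and Myl3 have standard errors of 1.82 to 2.33.

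Shares within a library do not depend on scaling. Actc1 made up 1.37%, 0.931% and 1.33% of the Acta1 and Actc1 counts in WT and 0.755%, 0.329% and 0.535% in Tsk, so no libraries overlapped. Myl4 made up 0.445%, 0.128% and 0.345% of the essential light chain counts of Myl1, Myl3 and Myl4 in WT and 0.0942%, 0.0810% and 0.0703% in Tsk, again without overlap. For both, the exact two-sided permutation test gave p = 0.1, the smallest that 3 against 3 allows, and an adjusted p of 0.2 over 5 shares.

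Among the regulatory chains, Myl2 made up 0.00804%, 1.91% and 0.0154% of the Myl2 and Mylpf counts in WT and 0.951%, 8.52% and 2.83% in Tsk. Myl3 made up 0.00373%, 0.840% and 0.00124% of the Myl1 and Myl3 counts in WT and 0.352%, 3.16% and 1.08% in Tsk. The exact permutation p was 0.2 for both. The fast isoform was the larger part of both light chain pairs in each library. All 8 members together took 2.34 ± 0.501% of the counts in WT and 1.73 ± 0.0708% in Tsk (exact permutation p = 0.2).

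The remaining actins and light chains of the tissue, which serve the cytoskeleton and smooth muscle, had log2 fold changes above 0. Of 4 other actins tested, 0 passed with edgeR, at an unadjusted p under 0.05 or with DESeq2, with a median log2 fold change of 0.34. Actb was at 0.35 ± 0.22 (edgeR adjusted p = 0.423) and Actg1 at 0.26 ± 0.18 (edgeR adjusted p = 0.457). Of 4 other light chains tested, 0 passed with edgeR or DESeq2 and 2 had an unadjusted p under 0.05, with a median of 0.38, and the most abundant were Myl6 at 0.39 ± 0.13 (edgeR adjusted p = 0.148) and Myl12a at 0.08 ± 0.15 (edgeR adjusted p = 0.811). Relative to adult muscle RNA all 4 actins and 3 of the 4 light chains passed as higher, on a scale where the median gene stood at 0.65.

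Among 7 tested kinases and phosphatase subunits that act on light chains, Mylk, the smooth muscle and non-muscle kinase, rose by 0.87 ± 0.13 on the log2 scale (edgeR adjusted p = 0.0136). It was the only one of the 7 called. The most abundant of the list, the muscle kinase Mylk4 and the phosphatase subunit Ppp1r12b, were at -0.73 ± 0.35 (edgeR adjusted p = 0.288) and -0.31 ± 0.20 (edgeR adjusted p = 0.433).

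The heavy chains that the light chains bind gave 2 genes that fell, Myh3 and Myh8, both counted above as well, and 0 that rose among 9 tested, with a median of -0.51. At an unadjusted p under 0.05, 3 were lower and 1 higher, and DESeq2 called 3 lower and 1 higher. The fast heavy chain Myh2 measured 373, 782 and 708 CPM in WT and 1277, 1902 and 1282 CPM in Tsk (1.26 ± 0.32, edgeR adjusted p = 0.0692). The fast heavy chains Myh4 and Myh1, the most abundant, were at -1.09 ± 0.36 (edgeR adjusted p = 0.136) and 0.09 ± 0.38 (edgeR adjusted p = 0.926). Of 8 other thick filament genes tested, Mybph, a myosin-binding protein, fell by 2.36 on the log2 scale (edgeR adjusted p = 0.0133), whereas the giant protein Ttn was at -0.74 ± 0.41 (edgeR adjusted p = 0.354). At an unadjusted p under 0.05, 5 of the 8 were lower and 0 higher, and DESeq2 called 4 lower and 0 higher. Over all genes tested, edgeR called 0.696% lower and 2.72% higher, and DESeq2 called 1.85% lower and 5.13% higher. An unadjusted p under 0.05 held for 20.1% of all genes in either direction.

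Of 17 other thin filament genes, 2 fell and 0 rose, against 0.696% and 2.72% of all genes tested, with a median of -0.58. They were Tnnt2, the troponin T of heart and embryonic muscle, at -1.61 ± 0.25 (edgeR adjusted p = 0.0159), and Tmod4, a thin filament capping protein, at -0.92 ± 0.20 (edgeR adjusted p = 0.0411). Neb, the thin filament scaffold, and Tpm2, a tropomyosin, were the most abundant, at -0.75 ± 0.32 (edgeR adjusted p = 0.237) and -0.62 ± 0.30 (edgeR adjusted p = 0.301). In the thin filament list 7 genes were lower and 0 higher at an unadjusted p under 0.05, and DESeq2 called 7 lower and 0 higher. Of 14 Z-disc genes, 1 fell, Pdlim3 at -1.24 ± 0.17 (edgeR adjusted p = 0.0115), and 0 rose. At an unadjusted p under 0.05, 6 Z-disc genes were lower and 0 higher, and DESeq2 called 5 lower and 0 higher. The most abundant, Actn3 and Flnc, were at -1.01 ± 0.30 (edgeR adjusted p = 0.102) and -0.63 ± 0.21 (edgeR adjusted p = 0.151).

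Of 12 genes of actin and myosin assembly and turnover, 2 fell and 0 rose: Klhl40, which stabilises thin filament proteins, at -1.09 ± 0.17 (edgeR adjusted p = 0.0169) and the caveolar protein Cavin4 at -0.96 ± 0.20 (edgeR adjusted p = 0.0376). The list's median was -0.68. At an unadjusted p under 0.05, 10 of the 12 were lower and 0 higher (20.1% of all genes in either direction). DESeq2 called 5 lower and 0 higher, where it called 1.85% of all its tested genes lower and 5.13% higher. The edgeR shares over all genes were 0.696% lower and 2.72% higher. Its most abundant genes, Xirp2 and Klhl41, were at -0.84 ± 0.30 (edgeR adjusted p = 0.169) and -0.67 ± 0.23 (edgeR adjusted p = 0.156). Of 14 genes for serum response factor, its partners and other muscle regulators, 0 passed with edgeR, 10 had an unadjusted p under 0.05 and DESeq2 called 1, with a median of -0.41. Srf itself was at -0.29 ± 0.17 (edgeR adjusted p = 0.405), and the most abundant, Nfix and Mef2c, were at -0.05 ± 0.17 (edgeR adjusted p = 0.913) and -0.58 ± 0.23 (edgeR adjusted p = 0.209). Relative to adult muscle RNA, Myh3, Myh8 and Mybph again fell, while Tnnt2 (adjusted p = 0.0867), Tmod4 (0.687), Pdlim3 (0.176), Klhl40 (0.310) and Cavin4 (0.539) did not pass in edgeR. On that scale the thin filament list had 0 genes lower and 1 higher, with a median of 0.21, and the myogenesis list had 6 lower. The heavy chain list had 2 lower and 2 higher. Those higher were Myh2 at 2.06 ± 0.30 (edgeR adjusted p = 1.41e-09) and Myh1 at 0.93 ± 0.29 (edgeR adjusted p = 0.0148). Both are among the 26 scaling genes, and 15.2% of all genes were higher on this scale.

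Among 11 fast-fibre genes 0 passed with edgeR, while DESeq2 called 9 lower and 1 higher and 9 had an unadjusted p under 0.05. Their median was -0.81, with Atp2a1, the fast calcium pump, at -0.81 ± 0.36 (edgeR adjusted p = 0.251). Of the 26 adult muscle genes 0 passed with edgeR, 19 had an unadjusted p under 0.05 and DESeq2 called 17 lower and 1 higher, with a median of -0.77. Over all genes tested, DESeq2 called 1.85% lower and 5.13% higher, and 20.1% had an unadjusted p under 0.05 in either direction.

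Patterns over the 6 libraries were set beside those of 13160 genes, as Pearson's r of log2(CPM + 0.5), which are descriptions over libraries that share their depth and muscle content. Closest to Myl4 were Myog (r = 0.998), Ankrd1 (0.990), Ino80 (0.988), Med21 (0.987) and Mt3 (0.987). Closest to Myl2 were Myh7 (0.995), Olfr1341 (0.986), Ccdc51 (0.984), Tnnc1 (0.978) and Sumf2 (0.975). Closest to Mylpf were Ppm1j, Ccdc91, Park7, Sf3b1 and Gapdh, at 0.997 to 0.998. Among the members Mylpf paired with Myl1 (0.999) and Acta1 (0.988), Myl2 with Myl3 (0.997), and Myl4 with Actc1 (0.903).

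Markers of other cell types moved with the groups in part, and their part in the members' values was not tested. Of 7 adipocyte genes, all 7 were higher at an unadjusted p under 0.05, DESeq2 called 6 higher and 2 rose by edgeR, Lep at 3.50 ± 0.69 (edgeR adjusted p = 0.0414) and Cfd at 2.56 ± 0.54 (edgeR adjusted p = 0.0444), and the list's summed level was 183, 210 and 146 CPM in WT and 551, 2271 and 401 CPM in Tsk. Its other abundant gene, Fabp4, was at 2.33 ± 0.67 (edgeR adjusted p = 0.106). The highest adipocyte library, Tsk replicate 5, was also the highest in Myl2 and Myl3. WT replicate 2, the next in both, had a lower adipocyte sum than any Tsk library. A relation between adipocyte genes and these members was not tested. Of 10 smooth muscle genes, Mylk and Myh11 rose (Myh11 at 0.79 ± 0.16, edgeR adjusted p = 0.0341), while Synpo2 and Smtn, the most abundant, were at -0.13 ± 0.28 and 0.09 ± 0.13. Of 7 epidermal genes, Lor rose by 1.78 ± 0.22 (edgeR adjusted p = 0.00792), and Krt5 and Dsp were at -0.60 ± 0.31 and 0.32 ± 0.26. Of 6 fibroblast genes 0 passed with edgeR, 4 had an unadjusted p under 0.05 and DESeq2 called 4 higher, and the most abundant, Col1a1 and Col3a1, were at 1.84 ± 0.44 (edgeR adjusted p = 0.0613) and 1.24 ± 0.38 (edgeR adjusted p = 0.116). Over all genes tested, edgeR called 2.72% higher, DESeq2 called 5.13% higher, and 20.1% had an unadjusted p under 0.05 in either direction.

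Opposite-strand genes overlap 5 of the members in the annotation, and their counts were small beside most of them. Galnt2l, across from Acta1, held 621 to 1082 counts. Ccdc63, across from Myl2, held 41 to 88, so the 3 and 9 counts of Myl2 in WT replicates 1 and 3 lay below it. Pth1r, across from Myl3, held 26 to 40 counts in WT and 116 to 223 in Tsk, so the 1 and 2 counts of Myl3 in WT replicates 3 and 1 lay below it. In Tsk replicates 4, 5 and 6 Pth1r held 116, 183 and 223 counts, beside 179, 1675 and 539 of Myl3. Whether the counting used strand is not stated in the labels or files used here.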

How the data were processed

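RNA sequencing libraries of dorsal skin, 3 WT and 3 Tsk, were analysed from the deposited gene tables, which hold the same genes in 4 units. The main values are expected counts per gene, as deposited by the authors. They are estimates that need not be whole and were rounded to whole numbers. The deposited CPM, and the deposited TPM, which from the values divides by the gene's span with its introns, served only as alternatives, and the authors' deposited TMM-scaled signal values were not used for tests. Reads were processed with bcl2fastq 2.19.1.403, STAR and Partek 7.0 against mm10, per the submitters' processing notes. The gene models, the counting rule and the use of strand are not stated in the labels or files used here. Deposited values of 1000000 or more were written to 3 significant digits, which touches 2 genes and no member. The file's gene ends lie 1 base past those of GENCODE M21, whose spans otherwise matched for all 8 members.

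Genes were filtered with edgeR 4.0.16 (filterByExpr, minimum count 10, minimum total 15), scaled by TMM and tested with the robust quasi-likelihood F-test in R 4.3.3. P-values were adjusted by Benjamini-Hochberg over the 19971 genes tested, with a threshold of 0.05. The standard error is the log2 fold change divided by the square root of F. The script was tested on simulated counts: with 200 of 19584 genes changed, it recovered 55.6% of the 2-fold and 93.4% of the 4-fold changes, and 7.29% of its calls were false. The second fit took its library scaling from 26 adult muscle genes. The 5 shares were compared with exact permutation tests (scipy 1.17.1). DESeq2 1.42.0 and limma 3.58.1 were alternatives. Library totals of 17561271 to 19219622 counts limit the precision of genes with few counts, such as Myl4.

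The members and the 19 gene lists were chosen with earlier results of these data known. All 159 listed symbols matched gene rows, 3 of them through a RefSeq synonym. The text names all members, and from each list every gene past the threshold and the 2 with the highest mean CPM. One gene that this rule selects is not reported here. The 5 genes most like Mylpf, Myl2 and Myl4 had a mean log2 CPM of at least 1 and a symbol other than Gm or Rik. Srf, Myh2, Tnni1, Tnnt1, Casq2, Myh7b, Pax3, Pax7, Myf5, Ncam1 and the heart markers are shown beside this rule, chosen after their values were seen.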

Additional observations from a re-analysis of the deposited data

How the results depend on the processing

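No paired analysis was possible because the WT and Tsk libraries share no replicate number. The 683 changed genes became 1791 (1695 higher, 96 lower) with library totals alone, 1157 (844 higher, 313 lower) with no filter, 1533 (1127 higher, 406 lower) with DESeq2 and 1888 (1786 higher, 102 lower) with limma on the deposited CPM. Leaving out 1 library gave 63 to 1381, the lowest without WT replicate 3 and the highest without WT replicate 1. WT replicate 2, Tsk replicate 5 and Tsk replicate 6 also moved the count, to 328, 401 and 389. With library totals alone the median log2 fold change of all genes was 0.25. The members called numbered 2, 4 with DESeq2 and 1 to 3 with 1 library left out. Relative to adult muscle RNA they numbered 3, and 1 to 5 with 1 library left out. The myogenesis list gave 4 to 8 genes lower with 1 library left out, an alternative chosen after seeing the data. From the deposited TPM, the Tsk minus WT differences in percentage points were -0.322 for the Actc1 share, -0.105 for the Myl4 share and -0.156 for all 8 members, beside -0.671, -0.224 and -0.604 from counts. Their causes were not tested. The log2 fold change of Myl6b ran from -0.26 without Tsk replicate 5 to 1.05 without WT replicate 2. Myl4 was called in all 16 alternatives and Actc1 in 11 of 16. In Tsk the 35 to 48 Myl4 counts per library, and in WT replicates 1 and 3 the 1 to 9 counts of Myl2 and Myl3, limit what depth can show.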
